A study of Mus musculus with 6 samples.

Results

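The bone morphogenetic protein (BMP) genes described here are 10 genes chosen by name: the ligands Bmp2, Bmp4, Bmp6 and Bmp7, the receptors Bmpr1a and Bmpr2, the inhibitory SMAD gene Smad6, and Id1, Id2 and Id3. These genes and the lists below were chosen with earlier results of these data known. Counts of calls among them are therefore a description and not a test. Each name had 1 row in the deposited table, so 10 of its 30315 genes were taken. The table holds RNA-Seq of mouse primary renal tubular epithelial cells (TECs) from C57BL/6 kidney, grown to about 50% confluence, in 2 groups of 3 libraries. The siSox9 group received an siRNA against Sox9 and the siNC group a control siRNA. Both groups were transfected 12 h before hypoxia/reoxygenation (H/R), with 6 h in glucose-free medium at 1.0% oxygen followed by 18 h of reoxygenation in complete medium. Neither group was left without H/R, so the comparison concerns Sox9 knockdown within injured cells. The 3 siSox9 libraries carry 1 siRNA name in the table, so loss of Sox9 and other effects of that siRNA cannot be told apart. Nothing in the labels says whether the 3 libraries of a group came from separate animals or cultures, so the p-values measure the spread between these libraries, which may be technical.

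BMPs are secreted ligands that bind a pair of serine/threonine kinase receptors, a type I receptor such as BMPR1A and a type II receptor such as BMPR2. The receptors phosphorylate SMAD1, SMAD5 and SMAD9, which enter the nucleus with SMAD4, and the Id genes are among the best known direct targets. ID proteins are helix-loop-helix factors without a DNA-binding region that hold E proteins away from DNA, and SMAD6 is itself induced by BMP signals and limits them. In the kidney, BMP7 is known as a tubule-derived factor needed for nephron formation and as a counterweight to TGF-β in injury.

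After Sox9 knockdown, 3 of 3 Id genes and 3 of 4 BMP ligands were lower, the type II receptor Bmpr2 was higher, and Bmp4, Bmpr1a and Smad6 did not pass the test. Relative to siNC, Bmp2 was left at 62.1% and Id1 at 68.9% of its level. In total 6 members were lower and 1 was higher at an adjusted p under 0.05 (limma on log2(FPKM + 1), Benjamini-Hochberg over the 12009 genes whose mean reached 1 FPKM). Over all genes tested, 30.4% were called in either direction, 17.6% lower and 12.8% higher. The median log2 fold change of the 10 members was -0.23, against -0.01 over all genes tested. Of the 10, 7 had groups that did not overlap, 6 with siSox9 lower, against 46.3% of all genes tested in either direction and 26.1% lower. The unit, FPKM, divides a gene's reads by its exon length and by library depth, and all 10 members passed the minimum of 1 FPKM.

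**Figure D1:**
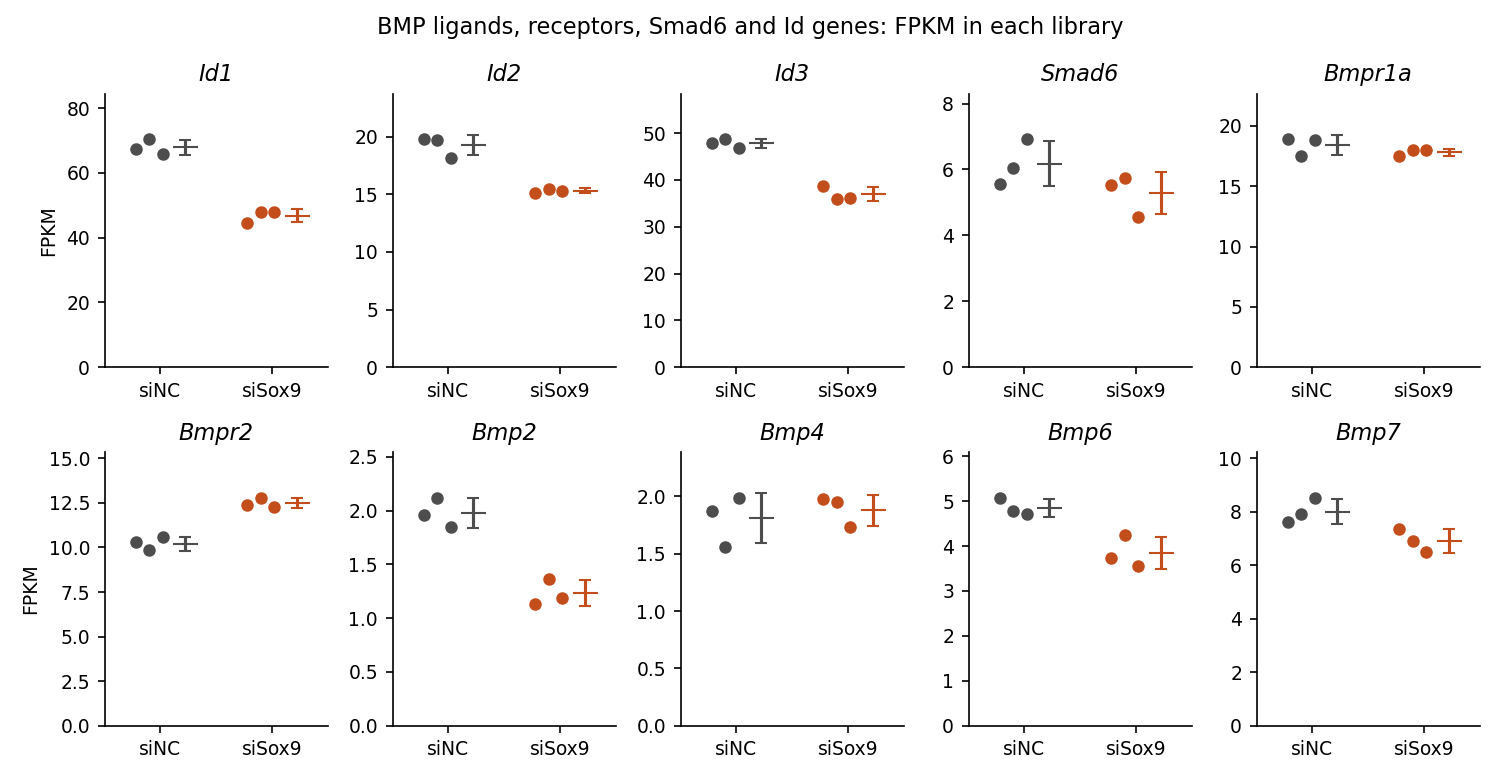
FPKM (vertical axes, each from 0) of each member in the 3 siNC libraries (grey) and the 3 siSox9 libraries (orange), with the mean and SD beside the points. The groups are apart for Id1, Id2, Id3, Bmp2, Bmp6, Bmp7 and Bmpr2 and overlap for Smad6, Bmpr1a and Bmp4.

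Sox9 itself (chr11:112782224-112787760, + strand, GRCm38) checked the labels. It had 8.93, 8.61 and 9.07 FPKM in the siSox9 libraries and 25.7, 26.5 and 25.6 FPKM in the siNC libraries, so 34.2% was left. Whole reads recovered from the FPKM values gave totals of 23893196 to 25725741 reads per library, and 9 of the 10 members came out as whole reads in all 6 libraries. In pairs of libraries, the mean chi-square over genes (1 if they differ by counting error alone) was 1.87 to 6.8 within groups and 16.4 to 19.9 between them. Within the siNC group, replicate 1 was the farthest from the others.

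Levels of the 10 genes, which FPKM makes comparable between genes of different length, spanned a wide range. In the siNC group Id1 came first with 67.9 ± 2.34 FPKM (SD, n = 3), followed by Id3, Id2, Bmpr1a, Bmpr2, Bmp7, Smad6, Bmp6, Bmp2 and Bmp4, the last at 1.81 ± 0.219 FPKM (SD, n = 3). Only Id2 and Bmpr1a, and Bmp2 and Bmp4, had overlapping values among neighbours in that order. In the siSox9 group the order was the same except that Bmpr1a lay above Id2 and Bmp4 above Bmp2, with no overlap between neighbours. Among all genes tested, the mean level of Id1 was above 93.3% of genes and that of Bmp2 above 9.37%.

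Id1 (ENSMUSG00000042745, chr2:152736251-152737410, + strand, GRCm38) is a compact protein-coding gene whose annotated exons merge into 1 block of 1160 bases. It had 44.6, 48.0 and 47.9 FPKM with siSox9 and 67.5, 70.4 and 65.8 FPKM with siNC. Each siSox9 library lay far below each siNC library, by more than the spread within either group. The recovered reads were 1331, 1414 and 1327 against 1945, 1973 and 1897, so counting error was small beside this gap. On the log2(FPKM + 1) scale used throughout, limma gave a log2 fold change of -0.53 with a standard error of 0.04 and an adjusted p of 0.00023. Of the 12009 genes tested, 2.13% had a lower log2 fold change.

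Id3 (ENSMUSG00000007872, chr4:136143497-136145755, + strand), which like Id1 is a rapid target of BMP signals in many cell types, was the next in level. Its values were 38.7, 36.0 and 36.1 FPKM with siSox9 and 47.8, 48.7 and 46.9 FPKM with siNC. The groups did not overlap, and the mean was 77.3% of that of siNC. It fell by 0.36 on the log2 scale, with a standard error of 0.04 and an adjusted p of 0.000612 in limma.

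Id2 (ENSMUSG00000020644, chr12:25093799-25097140, - strand) had 15.1, 15.5 and 15.3 FPKM with siSox9 and 19.8, 19.7 and 18.2 FPKM with siNC. Here too the groups were apart, and siNC replicate 3 came nearest to the siSox9 libraries. In limma it fell by 0.31 on the log2 scale, with a standard error of 0.04 and an adjusted p of 0.00154. Id4, the other gene of the family, was low, with 0.753 FPKM with siSox9 and 1.12 FPKM with siNC on average, and fell under the minimum. Its groups did not overlap, and the siSox9 mean was 67.1% of that of siNC. On all 28122 genes above 0 its log2 fold change, shrunk at this level by the added 1 FPKM, was -0.28 (adjusted p = 0.0816 from limma).

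**Figure D2:**
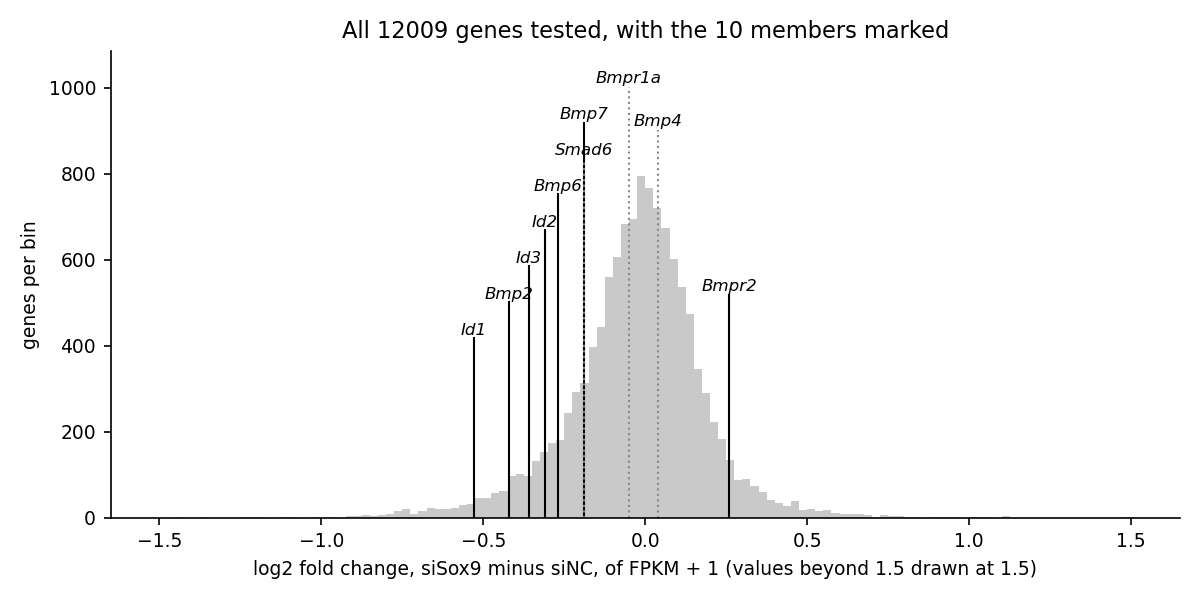
Distribution of the log2 fold change (siSox9 minus siNC, of FPKM + 1) over the 12009 genes tested, as genes per bin, with a line at each member (solid: past the threshold, dotted: not). Id1, Bmp2, Id3, Id2 and Bmp6 lie in the lower flank and Bmpr2 in the upper flank, while Bmpr1a and Bmp4 lie near the centre.

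The sum of Id1, Id2, Id3 and Id4 was 99.8 ± 0.672 FPKM with siSox9 and 136 ± 3.97 FPKM with siNC (SD, n = 3 each). Of Id1, Id2 and Id3, Id1 had the largest fall. Shares of a sum are not independent, so a smaller share of Id1 raises those of the others. Id1 made up 45.0, 47.8 and 47.9% of the sum with siSox9 and 49.5, 50.3 and 49.8% with siNC, a difference of -2.99 percentage points. Id2 and Id3 gained 1.18 and 1.88 points of the sum although both fell in FPKM, with no overlap of the shares between the groups. For these 3 shares the exact two-sided permutation test gave p = 0.1, the smallest that 3 libraries against 3 allow, so none can pass a threshold of 0.05. Of the siSox9 libraries, replicate 1 had both the lowest Id1 and the highest Id3 value, and without it the Id3 share differed by 0.865 points.

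**Figure D3:**
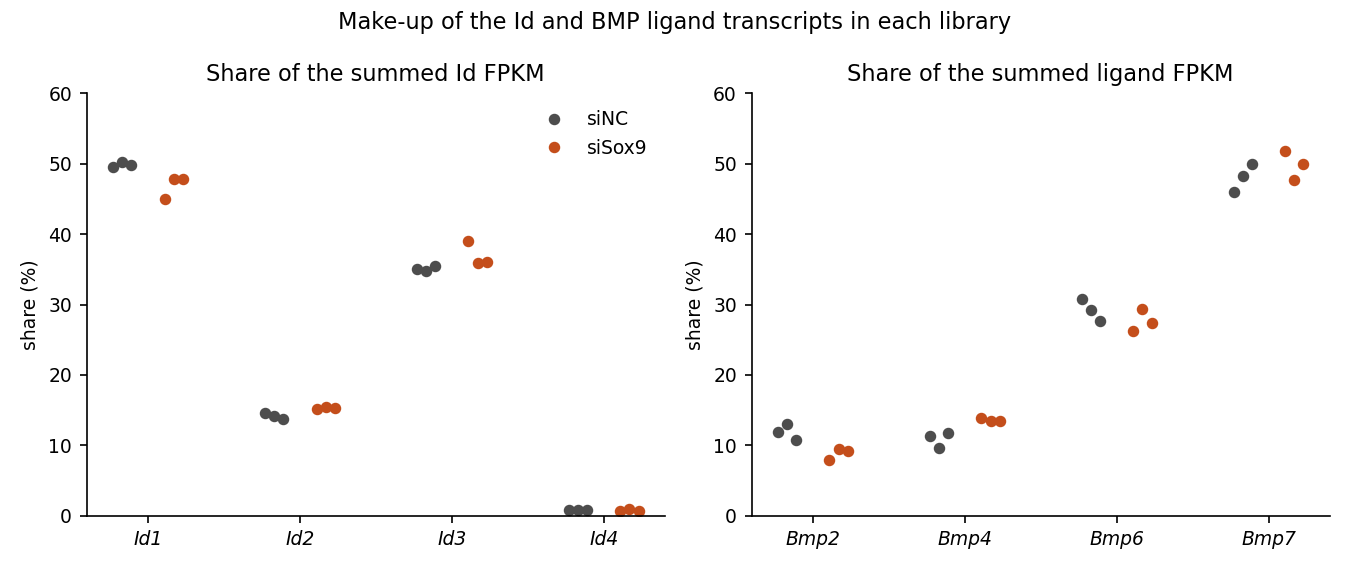
Share (%) of each gene in the summed FPKM of the 4 Id genes (left) and of Bmp2, Bmp4, Bmp6 and Bmp7 (right) in each siNC (grey) and siSox9 (orange) library. Id1 and Bmp2 take a smaller share with siSox9, and Id2, Id3 and Bmp4 a larger one, by a few percentage points, while Bmp6, Bmp7 and Id4 overlap.

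RefSeq start sites of 7 of the 10 members were given with sequence (GRCm38.p6, 250 bases before to 50 bases after the start). No window was given for Id1, Bmp2 and Bmp7, so these genes were not searched. The 7 windows were searched on both strands for GGCGCC, the core of BMP response elements, for CAGAC, the SMAD box, for ACAAT, the core of SOX sites, and for the E-box CANNTG, and the palindrome GTCTAGAC was added after the Smad6 sequence had been seen. No motif contains another, though neighbouring matches may share letters. GGCGCC was in the windows of Id2, Bmpr1a and Bmpr2 and in 11.9% of all 32851 windows. CAGAC was in those of Id3 and Bmp6 and in 49.6% of all. ACAAT was in that of Smad6 alone among the 7 and in 31.0% of all, and an E-box was in those of Id2, Bmp4, Bmp6 and Smad6 and in 72.3% of all. The windows of Id2 and Id3, both lower with siSox9, follow 5′ to 3′ on the strand of the gene, with GGCGCC and CAGAC (or its complement) in capitals.
Id2 (chr12:25096043-25096342, - strand): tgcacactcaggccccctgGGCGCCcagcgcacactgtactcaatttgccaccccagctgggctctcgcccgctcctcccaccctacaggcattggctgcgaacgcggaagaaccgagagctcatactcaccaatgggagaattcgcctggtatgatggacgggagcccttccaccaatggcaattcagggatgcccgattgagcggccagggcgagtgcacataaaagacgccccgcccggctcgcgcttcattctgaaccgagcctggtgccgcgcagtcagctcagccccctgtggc
Id3 (chr4:136143572-136143871, + strand): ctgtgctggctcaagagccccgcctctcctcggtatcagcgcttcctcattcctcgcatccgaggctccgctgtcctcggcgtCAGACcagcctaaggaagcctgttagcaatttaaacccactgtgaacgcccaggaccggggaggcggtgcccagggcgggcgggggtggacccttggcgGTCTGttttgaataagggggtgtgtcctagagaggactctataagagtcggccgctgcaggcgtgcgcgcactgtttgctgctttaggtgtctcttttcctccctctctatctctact
The GGCGCC of Id2 lies at -231 to -226 from the start site, and the 2 SMAD boxes of Id3 lie at -167 to -163 and, on the other strand, at -68 to -64. A match describes these letters only and was not tested for binding.

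Of the ligands, Bmp2 (ENSMUSG00000027358, chr2:133552159-133562885, + strand), an activator of the SMAD1/5/9 branch, changed most. It had 1.13, 1.36 and 1.19 FPKM with siSox9 and 1.96, 2.12 and 1.85 FPKM with siNC, from 103, 123 and 101 reads against 173, 182 and 163. The groups were well apart although the gene was low, and its mean was 62.1% of that of siNC. In limma it fell by 0.42 on the log2 scale, with a standard error of 0.07 and an adjusted p of 0.00473. At this level the added 1 FPKM shrinks the log2 fold change, which was -0.65 with a pseudocount of 0.1 and -0.69 with limma voom on the reads.

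Bmp6 (ENSMUSG00000039004, chr13:38345107-38500302, + strand), known for its control of hepcidin and iron, had 3.74, 4.25 and 3.55 FPKM with siSox9 and 5.08, 4.78 and 4.71 FPKM with siNC. The groups did not overlap, and siSox9 replicate 2 came nearest to the siNC libraries. It fell by 0.27 on the log2 scale, with a standard error of 0.06 and an adjusted p of 0.0154 in limma. Without siSox9 replicate 1 the adjusted p was 0.0526, and with every library's FPKM brought to 1 common sum it was 0.0532. Of its exon length, 5.74% is also covered by Txndc5 on the other strand, as are 3.96% of Bmp4 by Gm15217 and 4.57% of Bmpr1a by Gm17110, and whether counting used the strand is not given in the sources used here.

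Bmp7 (ENSMUSG00000008999, chr2:172868012-172940321, - strand) was the most abundant of the 4 ligands. It had 7.35, 6.91 and 6.48 FPKM with siSox9 and 7.60, 7.90 and 8.53 FPKM with siNC. The groups did not overlap, but the gap between siSox9 replicate 1 and siNC replicate 1 was smaller than the SD of either group. It fell by 0.19 on the log2 scale (standard error 0.06, 95% interval -0.32 to -0.05, adjusted p = 0.0434 from limma), close to the threshold. The call was lost without siSox9 replicate 2 (adjusted p = 0.107) or 3 (0.116) and without siNC replicate 2 (0.0865) or 3 (0.127), and with the replicate block the adjusted p from limma was 0.0914.

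Bmp4 (ENSMUSG00000021835, chr14:46383520-46390669, - strand), a ligand closely related to Bmp2, was at a like level in both groups. It had 1.98, 1.95 and 1.73 FPKM with siSox9 and 1.87, 1.56 and 1.99 FPKM with siNC, and the siSox9 values lay within the range of the siNC values. The log2 fold change was 0.04 (95% interval -0.14 to 0.22, adjusted p = 0.718 from limma). For Bmp2 that interval was -0.58 to -0.25, and the difference between the 2 genes was tested only as shares. Bmp2 made up 8.85 ± 0.795% of the 4 ligands with siSox9 and 11.9 ± 1.07% with siNC, and Bmp4 13.6 ± 0.294% and 10.8 ± 1.12% (SD, n = 3 each; exact two-sided permutation p = 0.1 for each, the smallest possible). Each siSox9 library had more Bmp4 than Bmp2, while the siNC values of both genes overlapped. The summed ligands were 13.9 ± 0.809 FPKM with siSox9 and 16.6 ± 0.374 FPKM with siNC (SD, n = 3 each).

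Of the receptors, Bmpr2 (ENSMUSG00000067336, chr1:59763400-59879014, + strand), the type II receptor for BMP ligands, was the only member called higher. Its values were 12.4, 12.8 and 12.3 FPKM with siSox9 and 10.3, 9.86 and 10.6 FPKM with siNC, from 5276 to 5848 reads against 4281 to 4742. Every siSox9 library lay above every siNC library. Its log2 fold change in limma was 0.26, with a standard error of 0.04 and an adjusted p of 0.00257, above that of 94.3% of the genes tested. The type I receptor Bmpr1a (ENSMUSG00000021796, chr14:34410734-34503341, - strand) had 17.5, 18.0 and 18.0 FPKM with siSox9 and 18.9, 17.5 and 18.8 FPKM with siNC. Those values overlapped, and the log2 fold change was -0.05 (95% interval -0.14 to 0.05, adjusted p = 0.418 from limma). The Bmpr2 window is shown because that gene moved against the others while sharing GGCGCC, in capitals at -105 to -100, with Id2.
Bmpr2 (chr1:59764029-59764328, + strand): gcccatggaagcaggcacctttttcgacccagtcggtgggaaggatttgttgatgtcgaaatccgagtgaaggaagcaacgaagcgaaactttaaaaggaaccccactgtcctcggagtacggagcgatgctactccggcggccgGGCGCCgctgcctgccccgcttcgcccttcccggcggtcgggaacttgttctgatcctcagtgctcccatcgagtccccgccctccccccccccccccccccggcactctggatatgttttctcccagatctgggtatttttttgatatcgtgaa

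Smad6 (ENSMUSG00000036867, chr9:63953076-64022059, - strand), which blocks BMP receptor signals and is a BMP target like the Id genes, did not pass the test. It had 5.53, 5.75 and 4.56 FPKM with siSox9 and 5.57, 6.03 and 6.92 FPKM with siNC. The groups overlapped, with siSox9 replicate 3 the lowest and siNC replicate 3 the highest. Its log2 fold change was -0.19, the same size as that of Bmp7, with a standard error of 0.09 (95% interval -0.41 to 0.03, adjusted p = 0.162 from limma). A fall like that of Id2 or Id3 therefore lies inside its interval. Its window held the only ACAAT of the 7, at -32 to -28, and the palindrome GTCTAGAC across the start site at -4 to 4, which 0.213% of all windows held.
Smad6 (chr9:64022010-64022309, - strand): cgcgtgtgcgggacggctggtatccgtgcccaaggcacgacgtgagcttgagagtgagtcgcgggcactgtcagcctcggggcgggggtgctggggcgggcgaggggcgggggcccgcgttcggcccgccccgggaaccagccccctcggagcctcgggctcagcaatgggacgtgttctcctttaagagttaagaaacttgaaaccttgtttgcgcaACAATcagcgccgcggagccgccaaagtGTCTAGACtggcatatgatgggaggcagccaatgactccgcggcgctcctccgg

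Beyond the 10 members, 62 further genes of BMP signaling were listed, also with earlier results of these data known. Of the 62, 59 were in the table and 38 passed the minimum of 1 FPKM. Of these 38, 11 were lower, 6 were higher and 21 did not pass, so 44.7% were called against 30.4% of all genes tested, with a median log2 fold change of -0.07. These counts depended on scaling and on single libraries, as did those over all genes tested. With every library's FPKM brought to 1 common sum, 5 were lower and 6 higher, against 1342 lower and 1229 higher of all 12009 genes tested. Lower calls were 7, 7 and 5 without siNC replicate 1, 2 or 3, against 2089, 1696 and 1558 over all genes tested. Limma voom on the recovered reads, which did not test Fst, Bmp1, Rgmb and Twsg1, called 16 lower and 4 higher. Of the 10477 genes that it tested, it called 2273 lower and 1438 higher. Of the 32 tested genes outside the members that the deposited data annotate to BMP signaling, 31.2% were called. Among the genes named below that did not pass, Twsg1, Smurf1, Smad7 and Skil were the 4 most abundant, and the others were chosen after their values were seen.

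Against 17.6% lower and 12.8% higher of all genes tested, 4 of 7 receptors and co-receptors tested were lower and 0 higher. They were the BMP type I receptors Acvr1 (-0.19, adjusted p = 0.00676) and Bmpr1b (-0.17, 0.0496), the type II receptor Acvr2a (-0.19, 0.014), and Rgma, a co-receptor that enhances BMP signals (-0.31, 0.00683; log2 fold changes and adjusted p from limma). Acvr1 went from 19.9 ± 0.741 FPKM with siNC to 17.3 ± 0.0455 FPKM with siSox9 (SD, n = 3 each). Bmpr2 thus rose while the other type II receptor called, Acvr2a, was lower, from 5.36 ± 0.138 to 4.60 ± 0.155 FPKM (SD, n = 3 each). Without any 1 library Bmpr1b was no longer called (adjusted p from 0.0637 to 0.136 in limma), nor was Acvr2a without siNC replicate 3 (0.0533). With the common FPKM sum Acvr1 (-0.16, limma's adjusted p = 0.072), Acvr2a (-0.16, 0.0699) and Bmpr1b (-0.14, 0.156) were not called, which left Rgma (-0.29, 0.0218). Of the other ligands Bmp8b alone passed the minimum, at 1.00 FPKM with siSox9 and 1.06 FPKM with siNC (adjusted p = 0.712 from limma).

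Secreted antagonists and modulators moved both ways, with 4 of 12 higher and 3 lower, against 12.8% higher and 17.6% lower of all genes tested. Higher were Fst, which encodes the activin and BMP binding protein follistatin (0.41, adjusted p = 0.000583), its relative Fstl1 (0.17, 0.00735), the DAN family antagonist Nbl1 (0.18, 0.0074), and Bmp1, which despite its name is a protease that cuts procollagen and the BMP antagonist chordin (0.26, 0.00698; limma throughout). Fst rose from 79.1 ± 3.75 to 106 ± 2.75 FPKM (SD, n = 3 each). Lower were Crim1, a membrane protein that binds BMPs (-0.41, adjusted p = 0.000364), the antagonist Grem1 (-0.26, 0.0355) and the Bmp1-like protease Tll1 (-0.23, 0.0309; limma). Crim1 went from 73.4 ± 2.44 to 54.9 ± 1.52 FPKM (SD, n = 3 each), below each siNC library in all 3 siSox9 libraries. Grem1 lost its call without any 1 siNC library (limma's adjusted p from 0.074 to 0.086), and Tll1 without any 1 library but siSox9 replicate 2 (0.0527 to 0.0918). The common FPKM sum ended both calls (0.0866 and 0.1). Nog, a secreted antagonist, just missed the threshold (-0.44, adjusted p = 0.0506 from limma), with siSox9 replicate 1 at 3.97 FPKM above siNC replicate 1 at 3.75 FPKM. With limma voom on the recovered reads Nog was called lower (-0.55, adjusted p = 0.0129). Twsg1, another BMP binding protein, was high at 45.1 and 45.2 FPKM and had a log2 fold change of -0.00 (95% interval -0.10 to 0.09).

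Among 11 intracellular transducers and inhibitors tested, 4 were lower and 1 was higher, against 17.6% lower and 12.8% higher of all genes tested. Smad1, which carries the BMP signal to the nucleus, fell by 0.24 on the log2 scale (adjusted p = 0.00558 from limma), from 7.01 ± 0.0963 to 5.78 ± 0.282 FPKM (SD, n = 3 each). Smad5, its close relative, had -0.08 (95% interval -0.19 to 0.03). Smad9 was under the minimum, at 0.19 FPKM with siSox9 and 0.446 FPKM with siNC, and its groups did not overlap. In the fit with no filter its log2 fold change was -0.28 (adjusted p = 0.0756 from limma). Smad4, the common partner, fell by 0.11 (adjusted p = 0.0433 from limma), the ubiquitin ligase Smurf2 by 0.32 (0.00444) and the corepressor Ski by 0.19 (0.0276). Pmepa1, which restrains TGF-β signals by binding SMADs, rose by 0.40 (adjusted p = 0.00446 from limma). Smad7, the inhibitory SMAD of both branches, had 27.0 ± 1.35 FPKM with siSox9 and 26.0 ± 1.92 FPKM with siNC (SD, n = 3 each), with a log2 fold change of 0.06 (95% interval -0.08 to 0.20). Smurf1 (-0.06) and Skil (-0.01) were the other abundant genes that did not pass. Smad4 was not called with any 1 library left out (adjusted p from 0.0523 to 0.135 in limma), nor was Ski without siSox9 replicate 1 or 3 or siNC replicate 1 or 3 (0.0543 to 0.087). With the common FPKM sum limma's adjusted p was 0.261 for Smad4 and 0.129 for Ski.

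Of 7 E protein genes and other BMP targets tested, 1 was called (14.3%), against 30.4% of all genes tested. It was Msx2, a homeobox target of BMP signals, which was higher (0.20, adjusted p = 0.017 from limma) and so moved against Id1, Id2 and Id3. It had 8.40 ± 0.479 FPKM with siSox9 and 7.16 ± 0.187 FPKM with siNC (SD, n = 3 each). Leaving out siSox9 replicate 1 or 3 gave it an adjusted p of 0.0602 or 0.0549 from limma. Gata2, Gata3 and Runx2, also tested, had log2 fold changes of -0.13, -0.03 and -0.21 (adjusted p = 0.149, 0.785 and 0.0693 from limma). Runx2 went from 1.57 FPKM with siNC to 1.23 FPKM with siSox9, and its groups did not overlap. Limma voom on the recovered reads called Runx2 lower (-0.37, adjusted p = 0.00588) but not Gata2 (-0.15, 0.0743) or Gata3 (-0.04, 0.738). The E protein genes Tcf3, Tcf4 and Tcf12, whose products ID proteins bind, had log2 fold changes of -0.04, -0.15 and -0.10 (adjusted p = 0.615, 0.152 and 0.0726 from limma). For Tcf4 and Tcf12 the groups did not overlap, with siSox9 lower, as for 26.1% of all genes tested. Limma voom on the recovered reads called both lower (Tcf4 -0.31, adjusted p = 0.00349, and Tcf12 -0.11, 0.0222) but not Tcf3 (-0.05, 0.49). Tcf4 had 0.929 FPKM with siSox9 and 1.15 FPKM with siNC, where the added 1 FPKM shrinks the log2 fold change.

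**Figure D4:**
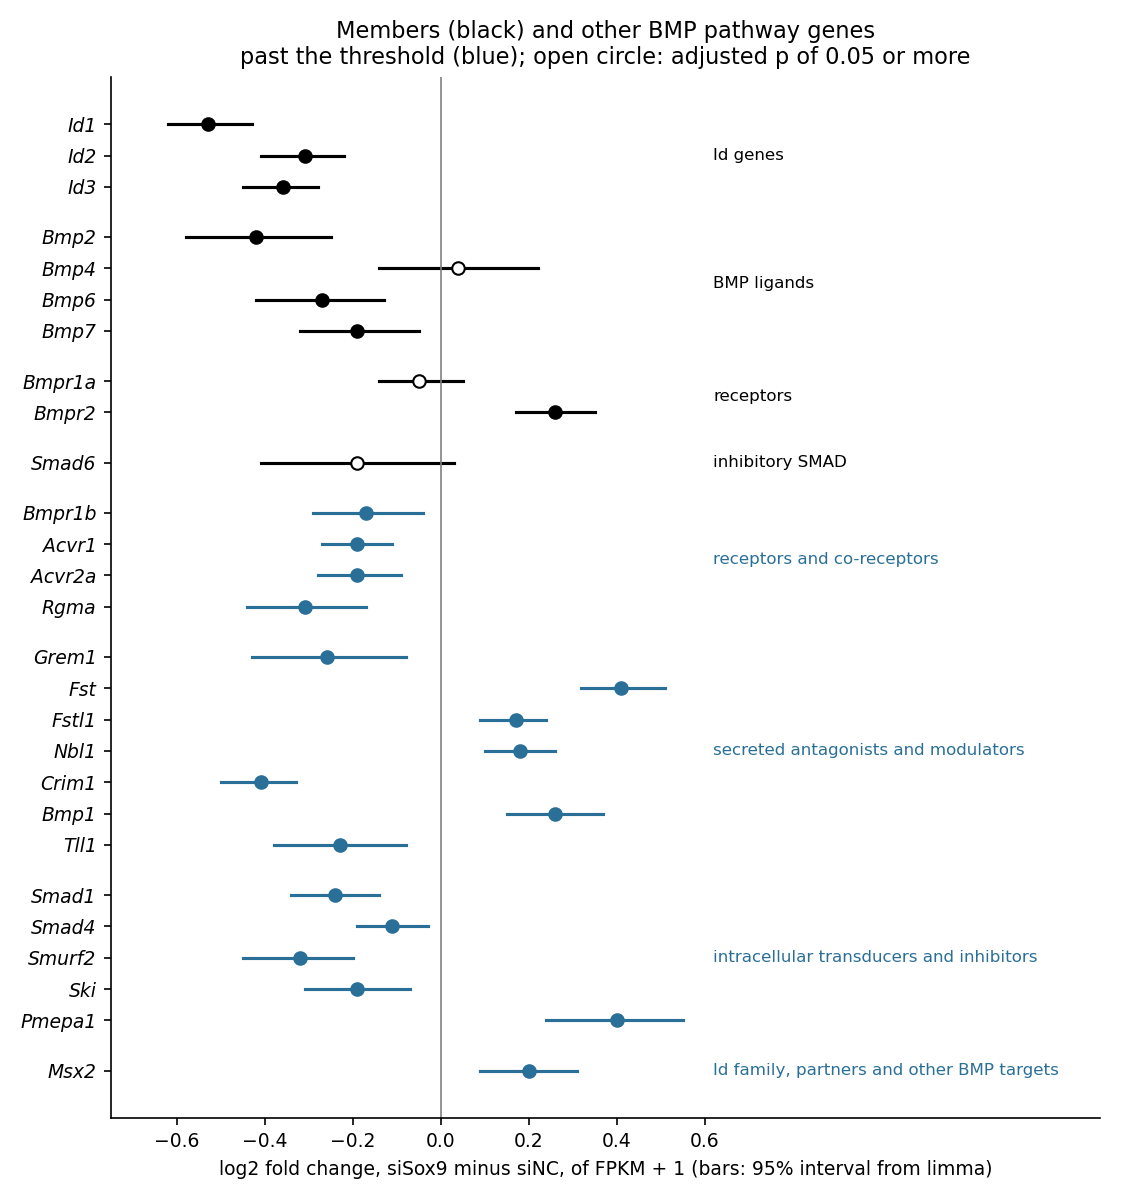
Log2 fold change (siSox9 minus siNC, of FPKM + 1; points) with the 95% interval from limma (bars) for the 10 members (black) and the 17 other BMP pathway genes past the threshold (blue), by role, with open circles for members not past it. Id genes, most ligands and the other receptors lie left of 0, while Bmpr2, Fst, Fstl1, Nbl1, Bmp1, Pmepa1 and Msx2 lie right of it.

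Markers of the cells in these cultures were read in the same fit. All 8 tubule epithelium markers were expressed, with Krt8 at a mean of 2110 FPKM, and Cdh16 was higher with siSox9 (0.36 on the log2 scale). Proximal tubule markers were low, with a sum of 2.68 to 3.31 FPKM over both groups and with Slc34a1 and Slc5a2 under 3 reads in each library, and the distal markers summed to at most 0.29 FPKM. Macrophage markers summed to 138 to 155 FPKM with siSox9 and 135 to 139 FPKM with siNC, mostly Lyz2, which was higher with siSox9 (0.21). C1qa, the next in level, had a lower mean with siSox9 (38.1 against 42 FPKM, log2 fold change -0.14), as had Csf1r and Ptprc. Cd68 and Adgre1 had higher means, and of the macrophage markers only Lyz2 was called. Podocyte markers summed to 12.5 to 13.9 against 18.7 to 19.5 FPKM, with Podxl (-0.57) and Synpo (-0.33) lower and Nphs1 listed at 0. Fibroblast markers summed to 6.45 to 7.95 against 7.99 to 9.09 FPKM and endothelial markers to 3.18 to 3.55 against 3.6 to 4.53 FPKM, and neither of the tested genes, Col1a1 and Cdh5, passed. Emcn, an endothelial gene near the minimum, was lower in the fit with no filter (-0.32, limma's adjusted p = 0.0331). The endothelial list was mixed. Kdr (0.509 against 0.418 FPKM) and Tek (0.122 against 0.0889 FPKM) had higher means with siSox9, and Pecam1, Cdh5 and Egfl7 lower ones. None of these was called. The podocyte, fibroblast and endothelial sums were lower with siSox9, as the Id genes were, and their part in the result was not tested. In bulk RNA, fewer cells of a type and less RNA per cell cannot be told apart.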

How the data were processed

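RNA-Seq libraries of siSox9 and siNC cells, 3 each, were compared. For every gene the authors deposited 1 FPKM value per library. Per the submitters' processing notes, Bowtie2 2.2.3, HISAT2 2.1.0, TopHat2 and mm9 were used, and the counter is not given in the sources used here. Of the genes shared with GENCODE M21, 93.3% have the same position, so coordinates are GRCm38. The siSox9 columns carry the name of the siRNA that is not the control, and 0 columns were left out. On log2(FPKM + 1), limma 3.58.1 (R 4.3.3, lmFit, eBayes with trend) was fitted to 12009 genes that averaged 1 FPKM or more, without a replicate block, and p-values were Benjamini-Hochberg adjusted with a threshold of 0.05. Whole reads were recovered with GENCODE M21 exon lengths, which gave whole numbers (to within 0.02 reads) in each library for 27946 genes. There 1 read on 1 kb of exons is 0.0389 to 0.0419 FPKM, and intervals cover the spread between libraries only. Reads of 10853 genes were also simulated in siSox9 against siNC, with a single assumed dispersion for all genes. There limma called 99 of 100 genes changed 2-fold, 89 of 99 changed 1.5-fold and 14 of 10654 unchanged. Smaller changes, as in most of the members called, were not simulated. Members and lists were chosen with earlier results of these data known. Named genes were the members, Sox9, each listed pathway gene past the threshold and the 4 most abundant that were not, with the exceptions named in the text. For the podocyte markers, 1 gene of the list is not reported here. Alternatives were a pseudocount of 0.1, no filter, a minimum of 5 FPKM, a common FPKM sum, median centring, quantile normalization, the replicate block, each library left out and, chosen after seeing the data, limma voom on the recovered reads. Tables and plots were made in Python 3.11.15 (pandas 2.3.3, scipy 1.17.1, matplotlib 3.10.9).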

Additional observations from a re-analysis of the deposited data

How the results depend on the processing

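Id1, Id2, Id3, Bmp2 and Bmpr2 kept their direction and their call under every alternative that tested them; a minimum of 5 FPKM removed Bmp2, Bmp4 and Bmp6 from the test. Bmp7 was not called with no filter (-0.19, limma's adjusted p = 0.115), with FPKM rescaled to the same sum (-0.16, 0.0919), with median-centred values (-0.16, 0.065), with quantile normalization (-0.16, 0.064) or with the replicate block (-0.19, 0.0914). Bmp6 was not called with no filter (-0.27, 0.0533) or with the rescaled sum (-0.25, 0.0532). Leaving out 1 library gave -0.23 to -0.15 for Bmp7, -0.33 to -0.23 for Bmp6 and -0.02 to 0.09 for Bmp4, whose sign turned to -0.02 without siNC replicate 2. The cause was not tested. Among the other BMP pathway genes, 11 were lower in the fit reported, 6 with no filter, 6 with a minimum of 5 FPKM, 5 with the rescaled sum and 5 to 10 with 1 library left out (7 without siNC replicate 1, 7 without siNC replicate 2 and 5 without siNC replicate 3). With limma voom on the recovered reads, which did not test Fst, Bmp1, Rgmb and Twsg1, 16 were lower and 4 higher. Of the 10477 genes that voom tested, 2273 were lower and 1438 higher. Over all genes tested 2118 were lower, 1376 with a minimum of 5 FPKM, which tested 7495 genes, and 1342 with the rescaled sum; 1532 were higher, and 944 to 1565 with 1 library left out, the fewest without siSox9 replicate 2. With median-centred values 1959 genes were higher and 1765 lower. Across genes, libraries with the same number showed no common deviation (r of 0.0649, -0.0504 and 0.00784 for replicates 1, 2 and 3), so the numbers were not read as pairs. The replicate block left 1373 genes higher and 1889 lower; of the members' calls it ended that of Bmp7 only.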

Other observations

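The deposited table itself annotates 86 genes to the BMP signaling pathway, a list taken up after the table had been seen. Of these, 40 had a mean of at least 1 FPKM, among them 8 of the 10 members. Without the members 32 were left, and 4 of them were higher and 6 lower after knockdown, or 31.2% against 30.4% of all genes tested, with a median log2 fold change of -0.02. Among them, 2 genes past the threshold were on none of the lists above and were named after their values had been seen. They were the early growth response gene Egr1, at 9.73 ± 0.721 FPKM with siSox9 and 4.65 ± 0.364 FPKM with siNC (SD, n = 3 each; log2 fold change 0.92, adjusted p = 0.00017 from limma), and E330009J07Rik, at 2.22 ± 0.0657 against 3.10 ± 0.202 FPKM (SD, n = 3 each; -0.34, adjusted p = 0.0039 from limma).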
